A study of Mus musculus with 22 samples.

Results

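The effect of a K5-VGLL3 transgene was compared between 2 tissues of the same mice: for every gene, the transgenic minus wild-type difference in nonlesional skin was set against the same difference in whole blood. The quantity is a log2 ratio of ratios, called the skin-minus-blood difference below: it is positive where the transgenic level relative to wild type was higher in skin than in blood, and negative where it was lower. Members were all genes of the tissue count table that had enough counts for the test, 16655 of 24401, measured in 16 of the 22 libraries of the series. They came from 8 mice. Transgenic animals 1 to 4 carried K5-VGLL3 and wild-type animals 1 to 4 did not. Each genotype had 2 females and 2 males, and each mouse gave 1 skin and 1 blood library. The series describes these mice as matched for age and sex and gives no age for them. It presents the transgenic mouse as a model of lupus in skin and in the body as a whole, and the comparison asks in which genes the transgene's effect differed between a site of disease and the circulation. The skin was nonlesional, the labels list no treatment, and K5 names the keratin 5 promoter, which is active in basal keratinocytes. RNA was isolated with different reagents from skin and from blood, so a level is compared between genotypes within a tissue, and the tissues are compared through that difference.

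VGLL3 is a transcriptional cofactor that has no DNA-binding domain and acts through TEAD factors, the DNA-binding partners that YAP and TAZ of the Hippo pathway also use. It is expressed more highly in female than in male human skin and has been linked to autoimmune disease. In lupus, antibodies, T cells and interferons act in the skin and in the circulation, and lymphocytes reach the skin from the blood along chemokine gradients. Whole blood RNA is mostly that of red cell precursors, platelets and leukocytes, and holds few transcripts of epithelial cells.

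Skin libraries held 19600892 to 40678246 counts and blood libraries 11197265 to 18235483. The share of counts on haemoglobin genes was 55.1% to 75.9% in blood and at most 0.0438% in skin. The tissue labels matched their markers in all 16 libraries: Krt5 had at least 51664 counts in each skin library and at most 192 in blood, and Hbb-bs had at least 4272731 in each blood library and at most 11858 in skin. Levels are given as CPM, a gene's counts divided by the library's size in megareads after scaling by the TMM method of edgeR, in the order of animals 1 to 4. Hair follicle genes set some skin libraries apart from the rest of their genotype. Over 28 such genes the summed level was 64.4, 4357, 78.4 and 80.6 CPM in transgenic skin and 8627, 75.5, 64798 and 15265 in wild-type skin, so that animal 2 of each genotype lay in the range of the other genotype.

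With each animal as its own block, 225 genes (1.35%) had a skin-minus-blood difference at an adjusted p under 0.05 (edgeR quasi-likelihood test, Benjamini-Hochberg adjustment over 16655 genes). In 175 (1.05%) the genotype effect was higher in skin than in blood, and in 50 (0.3%) it was lower. The median difference over all genes was 0.07 on the log2 scale. The first group held the epidermal keratins, T cell receptor and co-receptor genes, immunoglobulin constant regions, and muscle, fat and sebaceous genes. The second held the neutrophil genes Cd177 and Olfm4, the kinase Mapk13, the small GTPases Rhou and Rhov, and Upp1 of nucleoside salvage. As background for the sign counts of lists below, 9101 of all 16655 genes tested had a positive difference. The mean log2 CPM was higher in transgenic skin in 8174 genes. In transgenic blood it was lower in 9480 and higher in 7175.

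In 215 of the 225 genes the within-animal skin-to-blood ratios of the 4 transgenic mice did not overlap those of the 4 wild-type mice, against 9.86% of all genes tested. The 225 were selected by a test of that same contrast in the same libraries, so this share adds no support to it. The tissue that carried the difference varied. A gene was counted as held by a tissue where the genotype difference there, in mean log2 CPM, was at least 2 times that of the other tissue in size. Of the 175 genes, 92 were held by blood, 42 by skin, and 41 by neither alone. Of the 50 genes, 33 were held by blood, 4 by skin and 13 by neither alone. The split varied with the scaling. With TMM factors not centred within each tissue, 106 of the 175 were held by blood, 41 by skin and 28 by neither alone. For the 50 these counts were 34, 2 and 14. The log2 CPM used a prior count of 2, which shrinks differences that rest on few counts. The signs were opposite in the 2 tissues in 153 of the 175 and in 47 of the 50, and in 34 and 13 of them the difference reached 1 on the log2 scale in each tissue, against 0.847% of all genes tested. Selecting genes by a large difference between the tissues favours opposite signs, so these counts follow in part from the selection. A test of genotype in skin alone passed 2 of 17342 genes (0.0115%), and in blood alone 90 of 10701 (0.841%). Of the 225 genes, 222 were tested in skin alone and 0 passed there. In blood alone 143 were tested, 104 of the 175 and 39 of the 50, and 53 passed, 43 and 10 of these. The genes not tested in a tissue alone fell below the count filter within that tissue.

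**Figure D1:**
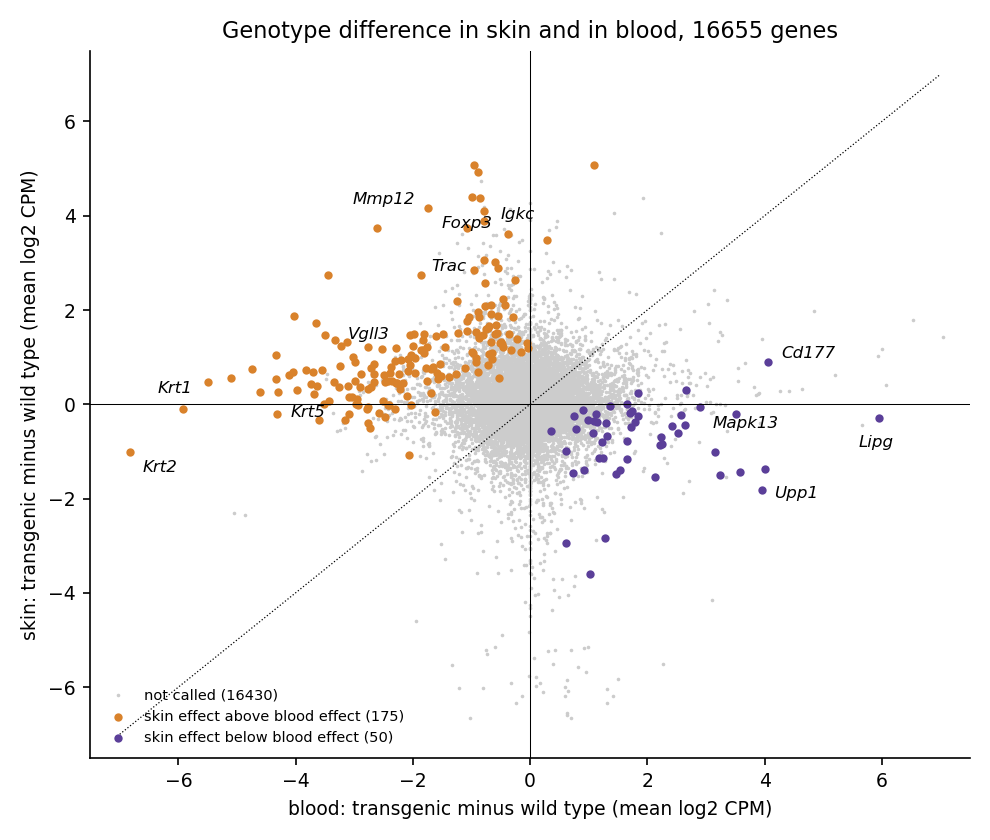
Transgenic minus wild-type difference in mean log2 CPM in blood (horizontal axis) and in skin (vertical axis) for each of 16655 genes. Grey points did not pass, orange points are the 175 genes with a higher effect in skin, purple points are the 50 with a lower effect, and the dotted line marks equal effects. The orange points form an arm to the left of 0 with skin near 0 (Krt1, Krt5) and an arm above 0 in skin (Igkc, Foxp3, Trac), and most purple points lie to the right of 0.

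The number of genes rested strongly on which animals entered. Without transgenic animal 2, whose skin had the hair follicle level of 4357 CPM, 875 of 16918 genes passed, among them 224 of the 225. Without wild-type animal 2, 209 of 17030 passed. Leaving out any of wild-type animals 1, 3 and 4 or transgenic animals 1, 3 and 4 left 78 to 120 genes, of which at least 77 were among the 225. List counts below with an animal left out are to be read beside these totals, which moved in the same fits. The hair follicle score of a skin library is its mean log2 CPM over the hair follicle genes. With this score in the model, 115 genes passed, 71 of the 175 and 1 of the 50 among them. Of the 58 genes described below that passed and were refitted with each animal left out in turn, 26 passed in all 8 of these fits. They were Vgll3, Krt5, Krt14, Krt15, Krt1, Col17a1, Calm4, Lce1a1, Defb6, Serpina3j, Fcgbp, Elovl3, Elovl4, Acta1, Tnnt3, Myh2, Cfd, Trac, Cd3d, Cd5, Ccr7, Nsg2, Igkc, H2-Q4, Mmp12 and Mapk13.

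Vgll3 itself passed. In skin its level was 98.3, 788, 123 and 91.5 CPM in transgenic mice and 74.6, 91.5, 43.4 and 49.2 in wild-type mice. Transgenic animal 2 stood far above the rest, and the lowest transgenic value equalled the highest wild-type value to 3 digits. Blood held few Vgll3 counts, 2, 15, 0 and 0 in the transgenic and 14, 16, 4 and 3 in the wild-type libraries. The skin-minus-blood difference was 4.00 (SE 0.60, adjusted p = 0.0147, edgeR), and the skin-to-blood ratio was higher in all 4 transgenic than in all 4 wild-type mice (two-sided exact permutation test over the 8 animals, p = 0.0286, the smallest this design can give, and 0.0286 when adjusted over 3 genes). In mean log2 CPM the genotype difference was 1.48 in skin and -2.04 in blood, and the latter rests on 17 against 37 counts. With no animal block the adjusted p was 0.11. The gene lies on chromosome 16 at 65815257 to 65866368 (mm10). Whether reads of the transgene counted toward it is not given in the sources used here.

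Krt5, whose promoter names the transgene, and its partner Krt14, the keratin pair of basal keratinocytes, also passed, and for both the difference came from blood. Krt5 was at 2869.9, 3205, 4071 and 4655 CPM in transgenic skin and at 2613, 3761, 3339 and 2541 in wild-type skin, and these ranges overlap. In blood it was at 0.946, 0.896, 0.490 and 0.707 CPM in transgenic mice and at 10.4, 24.7, 12.2 and 22.2 in wild-type mice. Each wild-type blood library held 178 to 192 Krt5 counts and each transgenic one 6 to 24, so the blood groups lie far apart. The skin-minus-blood difference was 4.65 (SE 0.44, adjusted p = 0.00255, edgeR). For Krt14 it was 4.98 (SE 0.50, adjusted p = 0.00307), with 0.542 ± 0.344 CPM (SD, n = 4) in transgenic and 15.2 ± 7.60 CPM (n = 4) in wild-type blood. The exact permutation p over animals was 0.0286 for each. Krt5 lies on chromosome 15 at 101707070 to 101712898 and Krt14 on chromosome 11 at 100203162 to 100207548 (mm10).

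**Figure D2:**
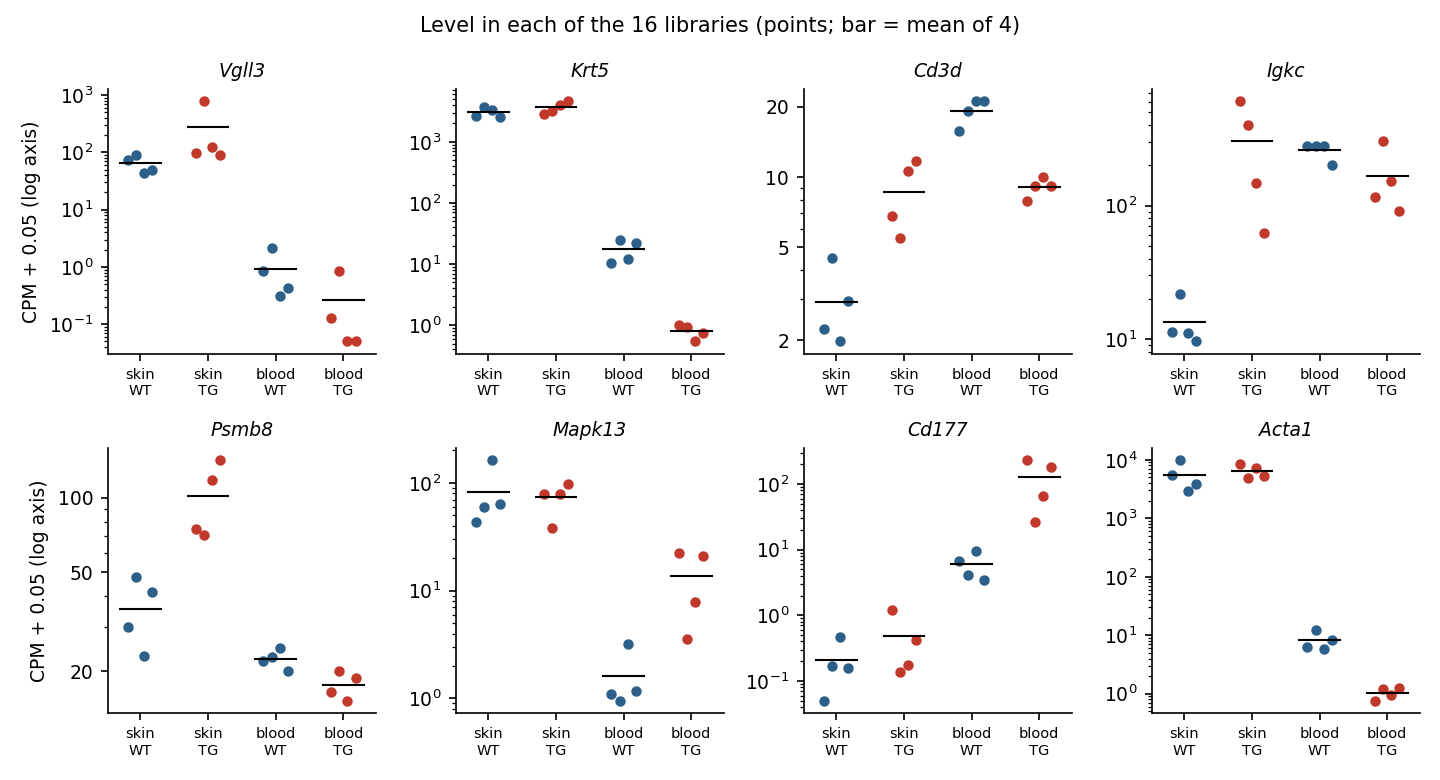
Level of 8 genes in each library, as CPM + 0.05 on log axes, for wild-type (WT, blue) and transgenic (TG, red) skin and blood; each point is 1 library and each bar the mean of 4. Krt5 and Acta1 differ between genotypes in blood and overlap in skin, Cd3d and Psmb8 are higher in transgenic skin and lower in transgenic blood, and Cd177 and Mapk13 are higher in transgenic blood.

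T cell genes had opposite genotype differences in the tissues. Of 23 genes of T cells (receptor chains, co-receptors and proximal signalling), 15 passed, all with the effect higher in skin, where 1.05% of all genes did so. All 23 had a positive difference, with a median of 2.34. The median genotype difference was 1.40 in skin and -0.92 in blood. In skin 22 of the 23 had a higher mean log2 CPM in transgenic mice, as did 8174 of all 16655 genes tested. In blood all 23 had a lower one, as did 9480 of all genes tested. Tcf7, a transcription factor of naive and memory T cells, was the exception in skin at -0.49. In bulk tissue, fewer cells of a type and less RNA per cell cannot be told apart.

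Trac, the constant region of the T cell receptor alpha chain, had the smallest p of the list. In skin it was at 7.76, 11.5, 11.4 and 13.7 CPM in transgenic mice and at 1.11, 2.84, 1.03 and 2.87 in wild-type mice. In blood it was at 13.4, 13, 14.5 and 13.2 CPM in transgenic and 17.1, 25.9, 24.9 and 25.2 in wild-type mice. The genotypes do not overlap in either tissue, and their order is reversed between them. The skin-minus-blood difference was 3.37 (SE 0.35, adjusted p = 0.00372). The gene lies on chromosome 14 at 54220521 to 54224206 (mm10).

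Cd3d, a signalling chain of the receptor complex, was at 6.75, 5.41, 10.6 and 11.6 CPM in transgenic and 2.17, 4.45, 1.93 and 2.90 in wild-type skin. In blood it was at 7.84, 9.11, 9.97 and 9.12 against 15.6, 19.1, 21.1 and 21.1 CPM. Again neither tissue has an overlap of genotypes. The difference was 2.68 (SE 0.34, adjusted p = 0.00705). Cd5, a surface regulator of receptor signalling, averaged 6.46 ± 2.58 CPM (SD, n = 4) in transgenic and 1.62 ± 0.198 in wild-type skin, and 5.68 ± 0.448 and 10.5 ± 1.88 in blood, a difference of 2.78 (SE 0.34, adjusted p = 0.00619). Others that passed were Cd6, Cd27, Cd2, Trbc1, Trbc2, Il7r, Lat, Zap70, Cd4, Cd3e and Lck, with differences of 1.92 to 3.55. The genes of CD8 T cells, Cd8a and Cd8b1, had differences of 2.01 and 2.54 and did not pass.

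**Figure D3:**
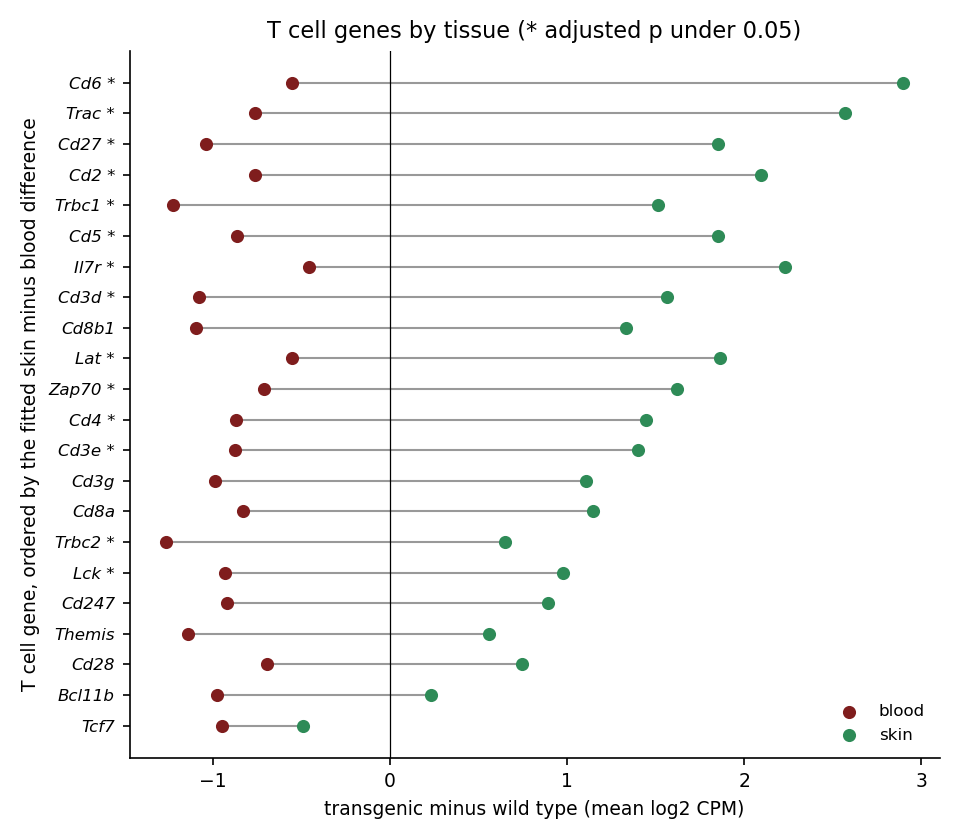
Transgenic minus wild-type difference in mean log2 CPM in blood (dark red) and skin (green) for 22 of the 23 T cell genes, ordered by the fitted skin-minus-blood difference; asterisks mark the 14 of these that passed. All blood points lie below 0, and all skin points except Tcf7 lie above 0.

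Ccr7, the chemokine receptor that guides naive T cells and migrating dendritic cells to lymph nodes, was at 2.55, 4.55, 4.46 and 5.19 CPM in transgenic and 0.253, 0.985, 0.396 and 0.536 in wild-type skin. Blood had 18.3, 13.4, 20.2 and 17.9 against 34.1, 36.2, 32.5 and 31.0 CPM. Its difference was 3.91 (SE 0.40, adjusted p = 0.00369), and it was the single member of 12 dendritic and Langerhans cell genes to pass. Nsg2, a gene of neuronal vesicles, had a difference of 3.05 (SE 0.34, adjusted p = 0.0042), with no overlap of genotypes in either tissue.

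Of 12 genes of regulatory T cells and checkpoints, 2 passed, Il2ra and Foxp3, with a list median of 2.37. Il2ra, the interleukin-2 receptor alpha chain, was at 7.87, 8.06, 13.7 and 14.9 CPM in transgenic and 3.39, 3.27, 1.16 and 2.04 in wild-type skin, and at 0.709, 1.48, 1.06 and 0.849 against 2.20, 2.45, 2.05 and 3.37 in blood. Its difference was 3.53 (SE 0.54, adjusted p = 0.0149). Foxp3, the defining transcription factor of regulatory T cells, averaged 8.29 ± 3.73 CPM (SD, n = 4) in transgenic and 0.632 ± 0.393 in wild-type skin. In blood the genotypes overlapped, at 1.57 ± 0.159 and 2.37 ± 1.5 CPM, and the difference was 4.20 (SE 0.75, adjusted p = 0.029). Tigit, an inhibitory receptor, was 1 of the 2 genes that passed in skin alone, and its skin-minus-blood difference of 4.09 did not pass (adjusted p = 0.0527).

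The T cell counts varied with the scaling and with the animals. With TMM factors computed within each tissue 11 of the 23 passed, and with no TMM factors 9. Without wild-type animals 3 and 4 or transgenic animals 1, 3 and 4, the counts were 9, 7, 9, 6 and 7, and without transgenic animal 2 it was 18. With the hair follicle score in the model 8 passed. With the genes left out whose level in skin was at least 10 times that in blood, 15 passed. Il2ra lost its call without wild-type animal 4 or transgenic animal 3 or 4, and Foxp3 without wild-type animal 1 or 3 or transgenic animal 1, 3 or 4. The summed level of 15 neutrophil genes was 3185 to 10738 CPM in transgenic and 296 to 2773 CPM in wild-type blood, and their part in the lower T cell levels there was not tested.

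Among antibody genes, 15 of 18 genes of plasma cells and immunoglobulin constant regions had a higher mean log2 CPM in transgenic skin. Of the 18, 7 passed with the effect higher in skin, with a list median of 4.00: Igkc, Jchain, Iglc1, Iglc2, Iglc3, Igha and Ighg2b. Igkc, the kappa light chain constant region, was at 608, 405, 146 and 62.5 CPM in transgenic skin and at 11.3, 21.6, 11 and 9.52 in wild-type skin, and the lowest transgenic value was above the highest wild-type value. In blood it was at 116, 303, 154 and 90.4 against 280.3, 279.6, 279.9 and 201 CPM, and these groups overlap. The difference was 4.86 (SE 0.60, adjusted p = 0.00619). The gene lies on chromosome 6 at 70726435 to 70726966 (mm10).

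Jchain, which joins the units of dimeric IgA and pentameric IgM, was at 90.3, 81.9, 39.7 and 16.3 CPM in transgenic and 2.88, 5.24, 2.93 and 3.11 in wild-type skin. Its blood values overlapped, at 0.788, 3.69, 0.572 and 0.919 against 3.59, 0.773, 4.16 and 3.12 CPM, and the difference was 5.08 (SE 0.80, adjusted p = 0.0176). The 3 lambda constant regions Iglc1, Iglc2 and Iglc3 had differences of 5.48, 5.2 and 6.63. Iglc2 and Iglc3 are near-identical copies between which reads could be split, so their separate values are uncertain. Ighg1 had a difference of -0.42 and did not pass.

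B cell genes did not pass: 0 of 16 with edgeR, 9 at an unadjusted p under 0.05, 3 with DESeq2 and 1 with limma-voom. Over all genes tested, 15.3% had an unadjusted p under 0.05, limma-voom called 1.93%, and DESeq2 called 6.58% of the genes to which it gave an adjusted p. Of the 16 differences 15 were positive, with a median of 1.5, and Cd72 had the smallest p at a difference of 1.92 (adjusted p = 0.054). The summed level of the 16 in skin was 82.8 to 136.8 CPM in transgenic and 69.97 to 95.3 in wild-type mice. Of 13 genes of natural killer and cytotoxic cells, 0 passed (edgeR, 8 at an unadjusted p under 0.05, 6 with DESeq2, 0 with limma-voom), with all 13 positive and a median of 1.58. The antibody counts depended on the animals: 2, 4, 1 and 1 of the 18 passed without wild-type animals 1, 2, 3 and 4, 1 without transgenic animal 3, 10 without transgenic animal 2, and 1 with the hair follicle score in the model. Jchain lost its call without wild-type animal 1, 3 or 4 or transgenic animal 3.

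Interferon gamma and antigen presentation genes had their genotype difference mainly in skin, with medians there of 1.10 for the interferon gamma and class II list and 1.04 for the class I list, against -0.46 and -0.24 in blood. Among these genes Igtp, Psmb8, Gbp4 and H2-Q4 passed, and the promoters of Gbp4 and H2-Q4 are not shown. A pair of promoters is shown first, of Igtp and Psmb8, which are known to be induced by interferon gamma and hold the match below. They are the 250 bases before the RefSeq start, from GRCm38.p6, 5′ to 3′ on the gene's strand, and capitals mark the match to TTCNNNGAA, the palindromic STAT site, searched on both strands.
Igtp, chr11:58199306-58199555: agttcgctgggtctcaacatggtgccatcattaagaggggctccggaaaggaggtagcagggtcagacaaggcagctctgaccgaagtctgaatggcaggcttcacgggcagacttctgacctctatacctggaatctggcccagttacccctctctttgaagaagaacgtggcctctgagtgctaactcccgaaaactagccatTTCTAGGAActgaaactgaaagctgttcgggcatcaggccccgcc
Psmb8, chr17:34197945-34198194: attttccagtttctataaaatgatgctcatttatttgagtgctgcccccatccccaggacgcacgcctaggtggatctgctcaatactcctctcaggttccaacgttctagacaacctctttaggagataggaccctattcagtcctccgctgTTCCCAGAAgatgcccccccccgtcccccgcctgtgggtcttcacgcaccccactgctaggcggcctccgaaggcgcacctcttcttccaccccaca
In Igtp the match lies 45 to 37 bases before the start. In Psmb8 it lies 97 to 89 bases before the start. Of 27025 genes with such a promoter, 8.13% held TTCNNNGAA. Of the 42 genes held by skin with a higher effect there, 19 had a promoter sequence and 6 of these held it (Foxp3, Igtp, Il7r, Ltb, Psmb8 and Rasal3). Of the 92 genes held by blood, 60 had a promoter sequence and 2 held it. These counts describe letters in a window and carry no test.

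Igtp, a GTPase that acts against intracellular parasites, was at 39.8, 40.6, 53.5 and 50.5 CPM in transgenic and 17.5, 21.0, 13.3 and 23.7 in wild-type skin, with no overlap. In blood it was at 57.3, 39.4, 44.8 and 53.8 against 49.8, 49.1, 51.8 and 49.4 CPM, and the genotypes overlap. The difference was 1.36 (SE 0.26, adjusted p = 0.0396). Psmb8, a catalytic subunit of the immunoproteasome, was at 74.9, 71.0, 118 and 142 CPM in transgenic and 29.9, 48.1, 23.0 and 41.7 in wild-type skin. Blood had 16.4, 19.9, 15.1 and 18.7 against 22, 22.7, 24.7 and 20.0 CPM, the reverse order. The difference was 1.86 (SE 0.35, adjusted p = 0.0386).

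H2-Q4, a class I molecule of the Qa region, had the smallest p of the class I list, at 124 ± 34 CPM (SD, n = 4) against 50.2 ± 13.3 in skin and 13.9 ± 0.714 against 20.0 ± 2.11 in blood, a difference of 1.82 (SE 0.24, adjusted p = 0.0085). The H2-Q genes are close copies, and reads of 1 could count toward another. All 19 class I genes had a positive difference, with a median of 1.15, and 2 passed. All 22 genes of the interferon gamma and class II list were positive too, with a median of 1.52, and Igtp and Gbp4 passed. In skin all 41 genes of the 2 lists had a higher mean log2 CPM in transgenic mice. Without transgenic animal 2, where 875 of all 16918 genes passed, 13 of the 19 and 11 of the 22 did. With each other animal left out, where 78 to 209 of all genes passed, 1 to 7 and 0 to 1 did. With no TMM factors 0 of each list passed, a setting in which the median difference of all genes was -0.21 rather than 0.07. Igtp passed in 1 of the 8 fits with an animal left out, and Psmb8 and Gbp4 each in 2.

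Of 34 genes that mainly mark type I interferon 0 passed with edgeR. At an unadjusted p under 0.05 there were 5 of the 34, near the 15.3% of all genes tested, and DESeq2 called 1 and limma-voom 0. Of the differences 22 were positive and 12 negative, and the median difference was 0.23. Their median genotype difference was 0.47 in skin and 0.31 in blood, with 30 of 34 higher in transgenic skin and 26 of 34 higher in transgenic blood.

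Chemokines that attract T helper type 2 cells, eosinophils and monocytes were among the genes with a higher effect in skin: 3 of 11 type 2 genes passed. Ccl22, a ligand of CCR4 made by dendritic cells and macrophages, was at 12, 30.4, 34.6 and 35.9 CPM in transgenic and 1.87, 6.30, 4.93 and 4.91 in wild-type skin, with no overlap. Its blood libraries held 1 to 9 counts each. The difference was 3.05 (SE 0.61, adjusted p = 0.0447). Ccl11, or eotaxin, was at 71.1, 62.2, 114 and 114 CPM against 34.7, 25.5, 35.0 and 33.0 in skin, and blood held 1 count in the transgenic group and 10 in the wild-type group. The difference was 5.19 (SE 0.92, adjusted p = 0.0273), and its size rests on those few counts. Ccl8 was at 405, 198, 317 and 471 CPM against 76.8, 253, 133 and 317 in skin, where the genotypes overlap, and had 6 against 26 counts in blood, a difference of 3.79 (SE 0.60, adjusted p = 0.0176). The 3 chemokines were sensitive to the animals: 0 to 2 of the list passed with an animal other than transgenic animal 2 left out, and 0 with the hair follicle score. Ccl22 passed in 1 of the 8 fits with an animal left out, Ccl11 in 2 and Ccl8 in 6.

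Mmp12, the macrophage elastase, was at 20.1, 458, 58.7 and 77.0 CPM in transgenic against 2.02, 7.52, 3.88 and 6.17 in wild-type skin. Transgenic animal 2 was the highest, as for Vgll3. Blood held 2 and 14 counts, and the difference was 8.44 (SE 0.91, adjusted p = 0.00407). Of 30 further cytokines and chemokines 0 passed (edgeR, 5 at an unadjusted p under 0.05, 4 with DESeq2, 2 with limma-voom), with 24 positive and a median of 1.04. Ccl5, a ligand of T cells and monocytes, came nearest at 2.25 (SE 0.49, adjusted p = 0.0551).

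Many genes with a higher effect in skin were transcripts abundant in skin whose level differed between genotypes in blood. Of the 92 genes held by blood, 90 were at least 10 times higher in skin than in blood, against 46.5% of all genes tested. Of 13 basal epidermal genes 6 passed (Krt5, Krt14, Krt15, Col17a1, Trp63 and Dsc3), and of 25 suprabasal genes 11 passed in this direction, among them Krt1, Krt10, Krt2, Lor, Krtdap, Calm4, Hrnr and Flg2. The suprabasal list had a median of 4.29, with medians of -0.11 in skin and -2.95 in blood. The count over both directions was 7 to 20 with 1 animal left out.

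Krt15, a keratin of basal and hair bulge keratinocytes, was at 2364, 2366, 3143 and 3064 CPM in transgenic and 1517, 3148, 1155 and 1423 in wild-type skin, and at 0.276, 0.421, 0.163 and 0.283 against 3.71, 8.89, 3.77 and 9.62 in blood. The skin values overlap and the blood values lie far apart. The difference was 5.0 (SE 0.46, adjusted p = 0.00255). Col17a1, the hemidesmosomal collagen that anchors basal cells, had 13 counts in transgenic and 148 in wild-type blood and a difference of 4.41 (SE 0.39, adjusted p = 0.00255). Krt1, the keratin of the first differentiated layer, had 1, 2, 0 and 2 counts in transgenic and 74, 151, 70 and 127 in wild-type blood, with 427 ± 56.5 and 633 ± 574 CPM (SD, n = 4) in skin. Calm4, a calmodulin-like protein of differentiating keratinocytes, had 3, 2, 3 and 0 against 50, 102, 52 and 91 blood counts. The cornified envelope gene Lce1a1 had 0 counts in transgenic blood and 34 in wild-type blood, so its level there was at least 16.6-fold lower, taking 3 counts over the group as the floor. The genes with the smallest p of all were Defb6, a beta-defensin of epithelia, and Serpina3j, a serine protease inhibitor. Defb6 had 4 and 44 counts in blood and a difference of 4.95 (adjusted p = 0.00116), and Serpina3j had 1 and 53 and a difference of 8.70 (adjusted p = 0.00116). Serpina3j was also at 754, 56.3, 239 and 1106 CPM in transgenic and 144, 112, 68.5 and 87.0 in wild-type skin, so that transgenic animal 2 was the lowest of all. Fcgbp, a mucus-associated binding protein, had 3 and 90 counts in blood and a difference of 7.55.

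The level of these transcripts in wild-type blood was a small share of that in skin. The median over the basal list was 0.451% of the wild-type skin level, and over the suprabasal list 0.464%, as counts per library total. In transgenic mice the medians were 0.108% and 0.0347%. Krt2, a keratin of the upper epidermis that is known to be abundant in ear, tail and sole skin, departed from this. It was at 9.50, 35.7, 9.51 and 29.9 CPM in wild-type blood, 0.0788, 0.158, 0.0817 and 0 in transgenic blood, and only 7.28, 2.88, 4.59 and 2.84 in wild-type skin. It was higher in wild-type blood than in the skin of the same mouse in all 4 animals, a comparison across 2 isolation methods. The skin-minus-blood difference of Krt2 was 6.62, and it lost its call without wild-type animal 4 or transgenic animal 1, 3 or 4.

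In CPM after TMM scaling, wild-type animals 2 and 4 had the highest blood levels of Krt5, Krt14, Krt15, Krt1, Krt2 and Calm4, and animals 1 and 3 the lowest. Krt5 counts were nearly equal in these blood libraries, 179, 192, 184 and 178. The order for Krt5 therefore follows library size and the TMM factors, which were 0.569, 0.235, 0.361 and 0.278. Genes of other tissues that lie in or below the skin were also measured. Of 14 skeletal muscle genes 5 passed (Acta1, Tnnt3, Tnni2, Ckm and Myh2), with all 14 positive and a median of 2.64. Acta1, the skeletal muscle actin, was at 0.709, 1.16, 0.899 and 1.20 CPM in transgenic and 6.26, 12.1, 5.81 and 8.37 in wild-type blood, while skin had 6554 ± 1683 and 5523 ± 3045 CPM (SD, n = 4). Its difference was 3.35 (SE 0.43, adjusted p = 0.00771). Tnnt3, fast skeletal troponin T, had 71 and 226 blood counts and a difference of 2.71 (SE 0.35, adjusted p = 0.00771). The muscle count was 3 or 4 with an animal other than transgenic animal 2 left out, and 9 without that animal.

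Of 10 adipocyte genes 4 passed (Cfd, Retn, Cidec and Plin1), of 12 sebaceous gland genes 5 (Elovl4, Elovl3, Awat1, Far2 and Fa2h), and of 14 fibroblast genes 2 (Lum and Postn). Cfd, adipsin, was at 0.228 ± 0.141 CPM (SD, n = 4) in transgenic and 2.03 ± 1.18 in wild-type blood, a difference of 3.81 (SE 0.55, adjusted p = 0.0114). Elovl4, an elongase of very long fatty acids for the skin barrier, had 11 and 185 blood counts, a difference of 5.48 (SE 0.51, adjusted p = 0.00255). Postn, a matrix protein of fibroblasts, was at 0.0788, 0.790, 0 and 0.354 CPM against 3.07, 10.7, 3.37 and 7.25 in blood, a difference of 4.17 (SE 0.70, adjusted p = 0.0211). The summed blood level of the fibroblast genes was 92.3 CPM in transgenic animal 2, within the 42.2 to 113 CPM of wild-type mice, and 6.05 to 11.7 CPM in the other transgenic mice. That of the adipocyte genes was 24.9 CPM in transgenic animal 2, within the 12.2 to 31.1 CPM of wild-type mice, and 3.07 to 11 CPM in the others. Postn lost its call without wild-type animal 3 or 4 or transgenic animal 1 or 4, and Lum and Retn each passed in 3 of the 8 fits with an animal left out.

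Of 13 endothelial genes 0 passed, with 11 positive and a median of 0.72, and 9 of the 13 had the lower mean in transgenic blood. Of 10 melanocyte genes 0 passed, with 2 positive and a median of -2.04, and 5 of the 10 had the lower mean in transgenic blood. In each of these lists 3 genes had an unadjusted p under 0.05 with edgeR, and DESeq2 and limma-voom called 0. With the hair follicle score in the model the melanocyte median was 0.81. All genes that were at least 10 times higher in skin made up 1.35% to 2.24% of all counts of transgenic mice and 1.02% to 2.40% of those of wild-type mice in blood, so their total share overlapped between genotypes. That set is broad, 46.5% of all genes tested, and includes genes such as Mapk13 that were higher in transgenic blood. Its total share could therefore not show a small amount of skin RNA. The 38 basal and suprabasal genes held 0.0229% to 0.0392% of counts in transgenic and 0.0271% to 0.0439% in wild-type blood, which also overlap. Their summed CPM overlapped too, 148 to 229 against 207 to 350 (basal) and 29.4 to 100 against 63.4 to 165 (suprabasal). A sum is led by the members with the highest levels. The mean log2 CPM, which weighs members alike, did not overlap for either list. Blood was collected from both genotypes by a route that the sources used here do not give. Skin material in the blood samples was not tested as a source of these transcripts.

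**Figure D4:**
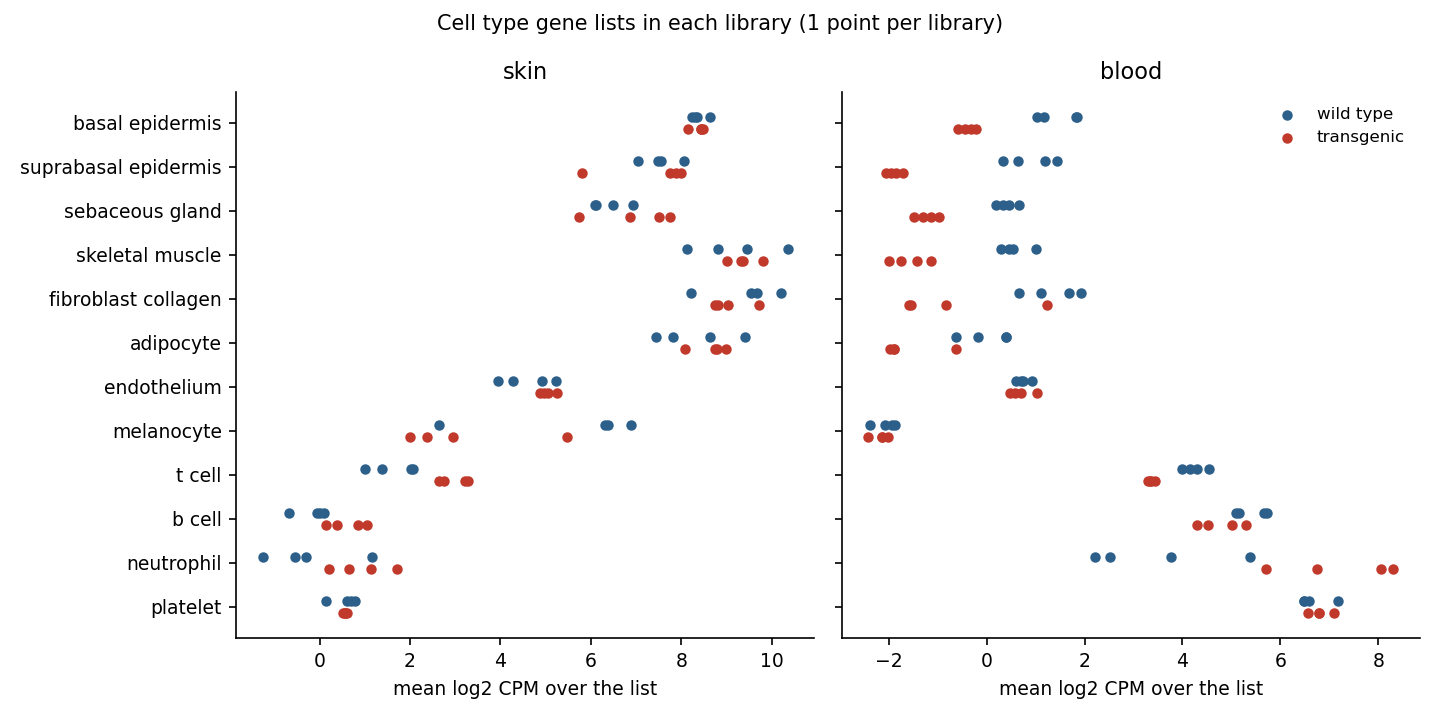
Mean log2 CPM over 12 cell type lists in each skin library (left) and blood library (right), wild type in blue and transgenic in red, 1 point per library. In blood the basal and suprabasal epidermal, sebaceous and muscle lists are higher in all 4 wild-type mice, T cell genes are higher in all 4 wild-type mice and neutrophil genes in all 4 transgenic mice; endothelial, melanocyte and platelet genes overlap.

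A further pair of lists bears on the epidermis. Of 9 measured genes of stressed or wounded keratinocytes, 2 passed, Krt16 and Krt6b. Krt16, which rises in wounded and psoriatic epidermis, was at 13.7, 19.4, 57.6 and 51.5 CPM in transgenic and 4.35, 7.76, 57.5 and 6.52 in wild-type skin, where wild-type animal 3 reached the transgenic level. It had 1 and 46 counts in blood, and the difference was 7.5 (SE 1.35, adjusted p = 0.029), a call that was kept in 2 of the 8 fits with an animal left out. Of 11 genes of the Hippo pathway and TEAD targets, 1 passed. This was Ctgf, a classic target of YAP and TEAD, at 128, 392.4, 160.4 and 108 CPM in transgenic and 72.5, 86.7, 61.7 and 58.8 in wild-type skin, with no overlap, and with 3 and 45 counts in blood. Its difference was 6.02 (SE 0.92, adjusted p = 0.0153). Ctgf lost its call without transgenic animal 3. Cyr61 and Axl had differences of 2.57 and 1.56 and did not pass. Over the 11 genes the median difference was 0.84, with 7 positive and 4 negative. Their median genotype difference was -0.05 in skin, where 5 of the 11 were higher in transgenic mice, and -0.54 in blood.

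The 50 genes with a lower effect in skin were mostly higher in transgenic blood, in which all 50 had the higher mean. Mapk13, a p38 kinase of epithelia and leukocytes, had the smallest p. It was at 22.4, 3.48, 7.85 and 21.1 CPM in transgenic and 1.04, 0.902, 3.17 and 1.12 in wild-type blood, with no overlap, and at 79.5, 38.1, 79.0 and 97.3 against 43.7, 59.9, 162 and 63.5 in skin, where the genotypes overlap. The difference was -3.02 (SE 0.41, adjusted p = 0.0085). The gene lies on chromosome 17 at 28769297 to 28780233 (mm10).

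Rhov and Rhou, related atypical small GTPases of the cytoskeleton, both passed at -3.33 (SE 0.52, adjusted p = 0.0161) and -2.82 (SE 0.47, adjusted p = 0.021). Rhov was at 3.86, 1.58, 1.96 and 4.81 CPM in transgenic and 0.232, 0.515, 0.859 and 0.250 in wild-type blood. Megf9, a transmembrane protein, was at 25.5, 7.59, 10.1 and 25.5 against 4.98, 3.22, 5.81 and 4.37 CPM in blood, a difference of -2.23 (SE 0.36, adjusted p = 0.0187). In these genes transgenic animals 1 and 4 had the highest and animals 2 and 3 the lowest transgenic blood levels. Lipg, endothelial lipase, had 1126, 42, 86 and 315 counts in transgenic and 0, 1, 9 and 0 in wild-type blood, a difference of -6.38 (SE 1.06, adjusted p = 0.021).

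Some of the 50 were opposite in the 2 tissues. Upp1, uridine phosphorylase of nucleoside salvage, was at 22.2, 5.06, 4.99 and 17.3 CPM in transgenic and 0.753, 0.129, 4.56 and 0.125 in wild-type blood. In skin Upp1 was at 2.95, 3.77, 2.54 and 2.38 against 3.64, 2.25, 62.1 and 21.3 CPM, so that the skin part rested on wild-type animals 3 and 4, the libraries with the highest hair follicle levels. The difference was -5.71 (SE 0.88, adjusted p = 0.0155). Plekhg1 and Tiam2, exchange factors for small GTPases, had -2.60 (adjusted p = 0.021) and -2.37 (adjusted p = 0.0215). Dach1, a transcription cofactor, had -5.09 (adjusted p = 0.0282). Csdc2 and S100a7a were among the 4 genes held by skin. S100a7a was at 182 and 40.8 CPM in the skin of wild-type animals 3 and 4 and at 0.591 to 2.53 in the other 6 mice. With the hair follicle score in the model 1 of the 50 passed, and without transgenic animal 2 all 50 did. Plekhg1, Tiam2 and Dach1 each passed in 2 of the 8 fits with an animal left out, Lipg and Rhou in 3, Rhov, Megf9 and S100a7a in 4, Upp1 in 6, and Csdc2 in all but the fit without wild-type animal 3.

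Neutrophil genes shared the blood pattern, but few passed. All 15 measured genes had a higher mean log2 CPM in transgenic blood, and their summed level was 3185 to 10738 CPM in transgenic and 296 to 2773 in wild-type blood, with no overlap. In skin 13 of the 15 also had a higher mean log2 CPM in transgenic mice. The median genotype difference was 1.35 in skin and 3.36 in blood. The median skin-minus-blood difference was -2.08, with 12 of 15 negative. Cd177, a surface glycoprotein of neutrophils, was at 230.0, 26.2, 66.8 and 185 CPM in transgenic and 6.72, 4.12, 9.51 and 3.37 in wild-type blood, against at most 1.14 CPM in skin, and was the only list member to pass, at -3.22 (SE 0.66, adjusted p = 0.0481). Mmp8, neutrophil collagenase, and Camp, the cathelicidin of granules, had -2.23 (SE 0.47, adjusted p = 0.0516) and -6.38 (SE 1.36, adjusted p = 0.0527). Without transgenic animal 2 the count was 7 of 15, and without wild-type animal 2 it was 2. It was 0 without wild-type animal 4 or transgenic animals 1, 3 or 4. Cd177 itself passed in 2 of the 8 fits with an animal left out. Olfm4, another neutrophil granule gene that is outside the list, and Tgm1, the transglutaminase of the cornified envelope, also passed, at -6.60 and -3.14. Tgm1 was the single suprabasal gene to pass in this direction, with 15.8, 3.64, 2.53 and 11 CPM in transgenic and 1.10, 0.644, 4.23 and 0.875 in wild-type blood, and passed in 2 of those 8 fits, as Olfm4 did in 3.

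Hair follicle genes had the lowest list median, -6.33, and 0 of 28 passed (edgeR, 15 at an unadjusted p under 0.05, 13 with DESeq2, 0 with limma-voom). Krt33a, a hair shaft keratin, had the smallest p at -10.79 (SE 2.41, adjusted p = 0.0602), with 0.172, 7.37, 0.246 and 0.268 CPM in transgenic and 25.9, 0.236, 1525 and 92.1 in wild-type skin. The overlap comes from animal 2 of each genotype. Without transgenic animal 2, 18 of the 28 passed. The hair median turned to 1.46 with the hair follicle score in the model. That score is the mean of these same genes, so the fit takes out their own skin difference and the change of sign carries no information. With the genes at least 10 times higher in skin left out the hair median was 4.25, a median over only the members left. For 26 cell cycle genes the median was -1.05, all 26 had a lower mean log2 CPM in transgenic skin, and 0 passed (edgeR, 7 at an unadjusted p under 0.05, 2 with DESeq2, 0 with limma-voom). With that score in the model it was 0.19.

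In the erythroid, platelet, ribosomal protein, mitochondrial and monocyte lists 0 genes passed with edgeR. The median difference was -0.53 for 11 erythroid genes, -0.30 for 12 platelet genes, 0.31 for 23 ribosomal protein genes and 0.26 for 7 mitochondrial transcripts. For 20 monocyte and macrophage genes it was -0.27, with 18 of 20 higher in transgenic skin and 15 of 20 higher in transgenic blood. At an unadjusted p under 0.05 there were 1, 1, 2, 0 and 3 genes in these 5 lists, and DESeq2 called 0, 0, 1, 0 and 2 and limma-voom 0 in each.

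**Figure D5:**
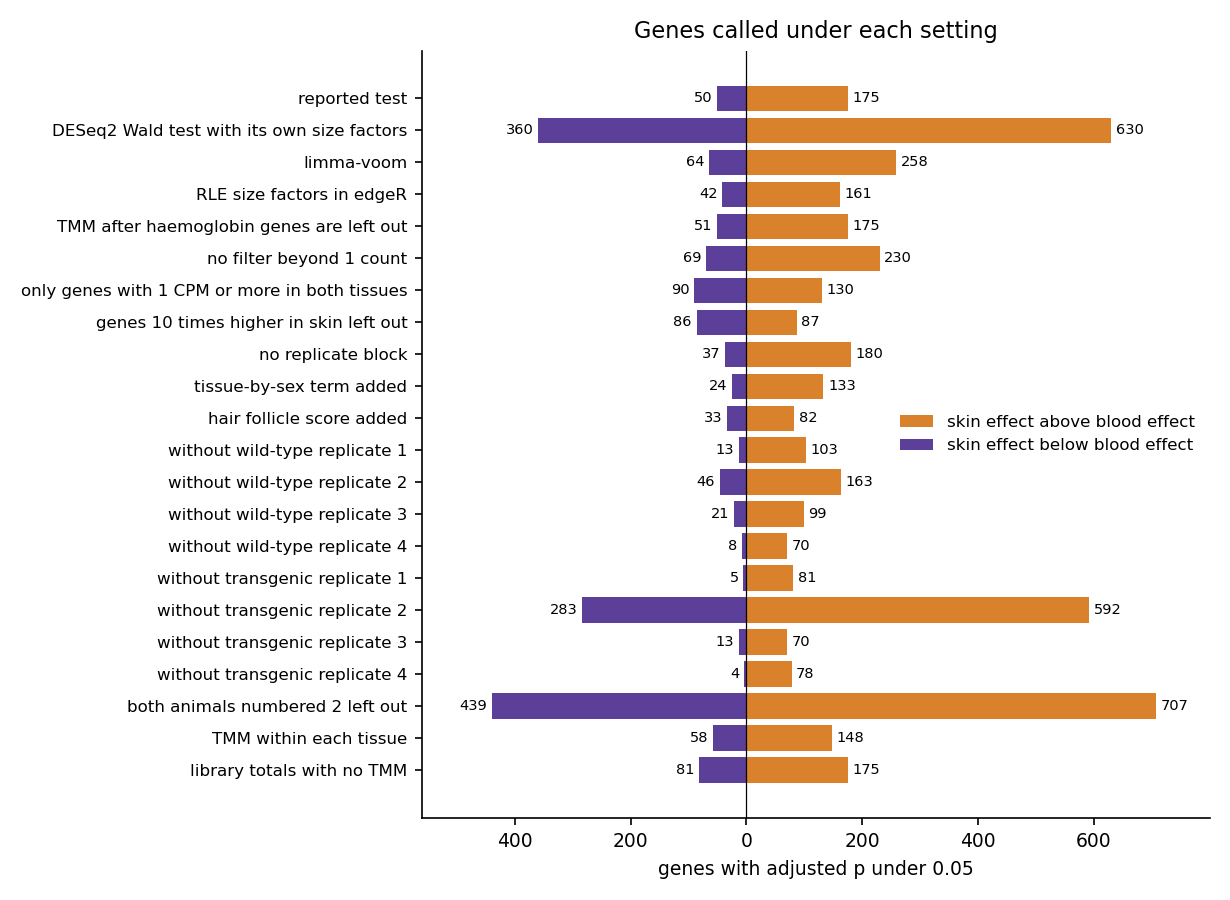
Number of genes at an adjusted p under 0.05 under each setting (vertical axis), with the effect higher in skin to the right (orange) and lower in skin to the left (purple). The count under the reported test was 175 and 50; it was highest with both animals numbered 2 left out (707 and 439), with DESeq2 (630 and 360) and without transgenic animal 2 (592 and 283).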

How the data were processed

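Stranded mRNA libraries of nonlesional skin and whole blood were sequenced by the authors, per the labels' protocols. Tools and build, per the submitters' processing notes and with no roles stated, were DESeq2, HTSeq 0.6.1, STAR 2.5.2 and mm10. No source used here gives the annotation or strand setting. The authors deposited raw counts per gene symbol. Symbols, in capitals there, were matched to GENCODE M21 names without regard to case, and 216 of the 225 genes that passed matched.

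The interaction of tissue and genotype was tested in edgeR 4.0.16 (R 4.3.3), by its quasi-likelihood method, over all 16 libraries, with animal as a block (6 residual degrees of freedom), TMM factors and the filterByExpr filter. The pairing comes from the labels, which give skin and blood the same animal tag. Deviations of an animal's skin and blood from their group means correlated at 0.0329 to 0.189 over 9825 genes. Replicates differed by more than sampling noise in all 24 pairs (chi-square over its degrees of freedom 12.7 to 668). The labels name separate animals. Each tissue alone was tested with sex as a covariate. For printed levels the TMM factors were centred within each tissue, which leaves genotype ratios as in the test; log2 CPM used a prior count of 2. Totals of 11197265 to 40678246 counts set the precision, and a floor of 3 counts covers counting error only. Standard errors are the fitted difference divided by the root of its F statistic.

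Genes named were Vgll3, Krt5 and Krt14 and, by smallest p, 10 per direction, 6 per direction at 1 CPM or more in both tissues, 5 per direction with opposite differences of 1 or more, and 3 per list of 33 lists; unnamed models, variable segments and sex-linked genes were left out except as list members. Foxp3, Krt2, Tgm1, Olfm4, Tcf7, Cd8a, Cd8b1, Ighg1, Plin1 and other genes given within list counts were chosen after their values were seen. Members and lists were chosen with earlier results of these data known. Alternatives were DESeq2 1.42.0, limma-voom (limma 3.58.1), other scalings, filters, covariates and left-out animals. The test was also run on simulated data, with changes placed in transgenic skin only and the same dispersion for all genes. That run does not cover animals that stand apart or changes in blood at few counts. Figures were drawn with matplotlib 3.10.9 (Python 3.11.15). A few genes are not reported here by name; they remain in the counts of their lists.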

Additional observations from a re-analysis of the deposited data

Results flagged for a closer look

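In 206 groups of 4 animals, 70 genes and 33 lists in each genotype, the highest or lowest skin-minus-blood log2 ratio of an animal was tested for its distance from the other 3. It stood apart in 11 groups, and chance flags about 1 in 20 groups. Transgenic animal 2 was the lowest for Lce1a1 at 8.44, Defb6 at 9.42 and the suprabasal list at 7.52, was the highest for Col17a1 at 12.12 and Camp at -2.27, and stood apart for the natural killer list at -2.5. Postn in transgenic animal 3 was at 12.84. Among wild-type mice, animal 2 stood apart for Jchain at 2.63, animal 3 for Krt16 at 5.93, and animal 1 for Cfd at 9.97 and Cd177 at -6.3.

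The genotype effect differed between the tissues, by the interaction test, in 175 genes with the higher and 50 with the lower effect in skin. Genotype differences of 1 or more with opposite signs in the 2 tissues were seen in 34 and 13 of these. Of the 5 with the smallest p in each direction, those with counts in both blood groups were Serpina3j at 8.7, Mmp12 at 8.44, Fcgbp at 7.55, Nsg2 at 3.05, Upp1 at -5.71, S100a7a at -7.65, Plekhg1 at -2.6, Tiam2 at -2.37 and Dach1 at -5.09.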

How the results depend on the processing

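None of the 225 genes that could be refitted changed sign under any of the 21 other fits, but their number did change. Against 175 genes with the higher and 50 with the lower effect in skin, DESeq2 gave 630 and 360 (with 1615 adjusted p-values not given), and leaving out both animals numbered 2, an alternative chosen after seeing the data, gave 707 and 439. Leaving out the genes 10 times higher in skin gave 87 and 86, and adding the hair follicle score 82 and 33. With a tissue-by-sex term 24 had the lower effect, with 1 CPM in both tissues 90, and with library totals and no TMM, also chosen after seeing the data, 81; the last moved the median of all genes to -0.21. With 1 animal left out the counts ranged from 70 to 592 and from 4 to 283. Without the animal block, which ignores the pairing of skin and blood, 180 and 37 genes passed, 133 of them among the 225. The cause of these shifts was not tested.

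Settings that drop genes leave fewer members in some lists, and a list median there is over the members left, so it is not a refit of the same genes. Such medians turned sign with genes limited to 1 CPM in both tissues for Hippo targets (-0.10) and stressed keratinocytes (-1.41). With the genes 10 times higher in skin left out they did so for these lists (-0.11 and -1.45), hair follicle (4.25) and type 2 genes (-0.18). List medians also turned sign with the hair follicle score for hair follicle (1.46), melanocyte (0.81), type 2 (-0.35) and cell cycle genes (0.19). For the hair follicle list this follows from the score, which is the mean of its own genes. With single animals left out the median of Hippo targets ranged from -0.19 to 1.22, below 0 without wild-type animal 3. With no TMM that of ribosomal protein genes was -0.00027. Ighg1 ranged from -1.10 to 0.073 with 1 animal left out and Tcf7 was -0.14 without both animals numbered 2; neither passed. Counts of few reads limit the blood values of skin genes.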
